A study of Mus musculus with 6 samples.

Results

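The stretch of mouse chromosome 2 that holds Cd44, Ehf and Elf5 was followed through 3 ATAC-seq peak lists of NMuMG cells, 2 after the SWI/SNF inhibitor BRM014 and 1 after its vehicle DMSO. Its members were all accessible regions that overlap the mm9 window chr2:102000000-103350000, a span of 1.35 Mb, where Cd44 lies near 102.7 Mb, Ehf near 103.1 Mb and Elf5 near 103.3 Mb. The window held 25 of the 25922 regions of the 6 h BRM014 list, 40 of the 38422 regions of the 30 h BRM014 list and 59 of the 42310 regions of the DMSO list. The window was chosen by the share of its DMSO regions that were missing at 30 h in these same lists. Its share missing at 30 h is therefore a description, and so is its share missing at 6 h, which was measured against the same DMSO list.

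NMuMG is an established wild-type epithelial line from normal mouse mammary gland. ATAC-seq reads where the transposase Tn5 can insert adapters, so a peak marks accessible DNA. BRM014 blocks the ATPases of the SWI/SNF complexes, Smarca4 and Smarca2, and was given for 6 h or for 30 h, and the third group received DMSO, for 30 h by the name of its list. Each group had 2 biological replicates, but the authors deposited 1 peak list per group made from both, so no value has a replicate error, no test between treatments was possible, and the 6 h list had no vehicle of its own time. The labels' extraction protocol names a TGFβ treatment that no sample label carries. Values in parentheses after a share, or after the pileup ratio of 1 region, are 95% intervals of counting error only, and those after a median are the lowest and highest value over the regions. The lists hold positions without gene names, so the identity of the cells was not checked against marker genes.

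SWI/SNF complexes use ATP to slide and evict nucleosomes, and many enhancers depend on them to remain accessible. Cd44 encodes a cell surface receptor for hyaluronan that is widely used as a marker of basal and mesenchymal-like mammary cells. Ehf and Elf5 encode related ETS transcription factors of epithelia, and Elf5 is known as a regulator of alveolar cells and milk production in the mammary gland. In the RefSeq gene order of build GRCm38.p6 the protein-coding genes of this stretch run Ldlrad3, Trim44, Fjx1, Pamr1, Slc1a2, Cd44, Pdhx, Apip, Ehf, Elf5, Cat and Abtb2. Slc1a2 encodes a glutamate transporter, Pdhx a component of the pyruvate dehydrogenase complex, and Cat the enzyme catalase. The positions of that build were not converted to mm9, so no region is assigned to a promoter, an exon or an intron.

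The starts of the naming genes are shown because they are the DNA by which the stretch can be recognised. RefSeq promoters of build GRCm38.p6, from 250 bases before to 50 bases after the start, were at hand for Cd44 with 1 start site and for Elf5 with 2, all on chromosome 2. They are written 5′ to 3′ on the strand of the gene, minus for Cd44 and plus for Elf5, with each match to the E-box CACCTG on either strand in capitals.
Cd44: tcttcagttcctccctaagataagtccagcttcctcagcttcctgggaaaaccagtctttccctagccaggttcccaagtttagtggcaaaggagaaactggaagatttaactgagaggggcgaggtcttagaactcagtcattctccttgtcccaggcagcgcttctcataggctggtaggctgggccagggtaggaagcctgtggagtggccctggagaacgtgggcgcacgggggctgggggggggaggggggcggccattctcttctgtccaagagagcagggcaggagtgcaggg
Elf5 start site 1: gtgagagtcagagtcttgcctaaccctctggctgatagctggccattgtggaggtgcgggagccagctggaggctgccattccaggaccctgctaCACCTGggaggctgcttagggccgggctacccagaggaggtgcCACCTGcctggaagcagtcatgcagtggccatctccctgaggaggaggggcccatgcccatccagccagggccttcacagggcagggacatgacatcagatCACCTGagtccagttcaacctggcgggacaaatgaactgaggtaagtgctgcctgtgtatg
Elf5 start site 2: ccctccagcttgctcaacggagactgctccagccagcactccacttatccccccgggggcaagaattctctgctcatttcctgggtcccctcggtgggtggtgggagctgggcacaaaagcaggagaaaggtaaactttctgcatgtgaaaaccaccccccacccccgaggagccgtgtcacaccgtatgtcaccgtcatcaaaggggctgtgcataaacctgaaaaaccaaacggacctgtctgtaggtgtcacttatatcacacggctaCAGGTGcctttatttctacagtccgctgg
The E-box, the core that zinc finger factors of the Snail and Zeb families bind, occurred 0 times in the Cd44 promoter, 3 times at Elf5 start site 1 and 1 time at start site 2. It was present in 20.2% of all 32851 RefSeq promoters of this length. The AP-1 motif TGANTCA, present in 7.81% of them, and the ETS motif CCGGAA, present in 14.9%, were searched on both strands and had 0 matches in these 3 promoters. GC content was 58.0% for Cd44, and 60.7% and 55.3% for the Elf5 start sites.

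A larger share of the window's DMSO regions than of all DMSO regions lacked a call after BRM014, and some without a 6 h call had one at 30 h. At 6 h 36 of 59 DMSO regions had no overlapping region (61.0%, Wilson interval 48.3 to 72.4%), against 43.6% of all DMSO regions. At 30 h 25 of 59 were missing (42.4%, 30.6 to 55.1%), against 26.1% of all. The lists differ in length, and with the 25922 strongest regions of each the shares were lower, at 10 of 28 (35.7%, against 23.1% of all) at 6 h and 8 of 28 (28.6%, against 19.9% of all) at 30 h. A missing region is one without a call, and it may still have been open to some degree. In a pooled population fewer cells with an open region and less opening per cell cannot be told apart. Of the 59 regions, 23 were missing at both times (39%, 27.6 to 51.7%), against 23.7% of all DMSO regions. Another 13 were missing at 6 h only (22.0%, against 19.9% of all), 2 at 30 h only (3.39%, against 2.33% of all) and 21 were called at both times (35.6%, against 54.1% of all). The 6 h list, too, lacked 23 of the 25 DMSO regions that the 30 h list lacked (92.0%, 75 to 97.8%), close to the 91.0% over all DMSO regions. The 30 h list held 13 of the 36 that the 6 h list lacked (36.1%, 22.5 to 52.4%), against 45.6% over all, which lies inside the interval.

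**Figure D1:**
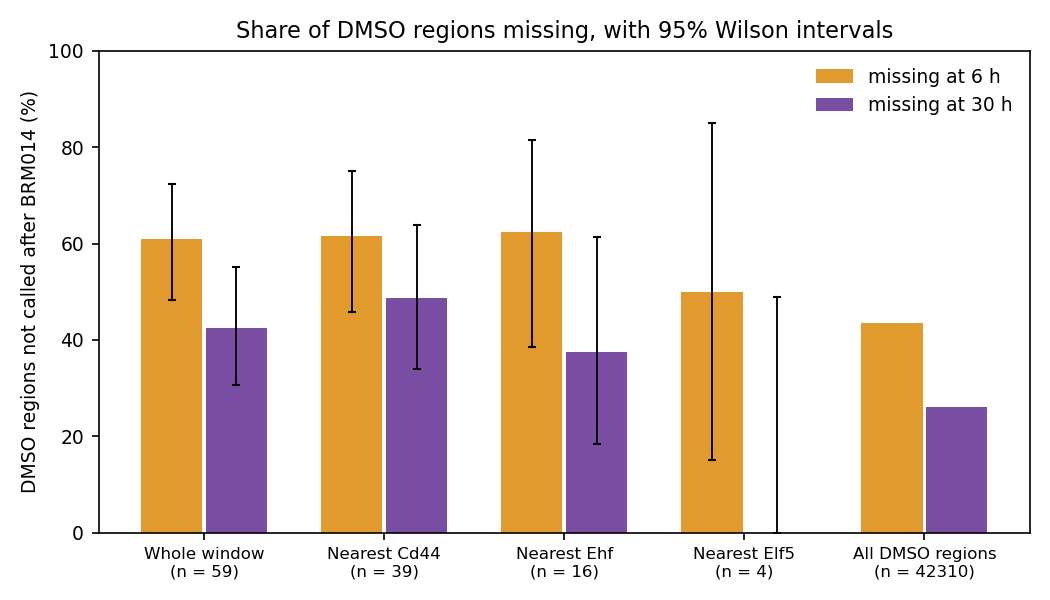
Bars show the percentage of DMSO regions not called after 6 h and after 30 h of BRM014, for the whole window, for the sections nearest Cd44, Ehf and Elf5, and for all 42310 DMSO regions, with 95% Wilson intervals. The window stood at 61.0% and 42.4%, all DMSO regions at 43.6% and 26.1%, and in the Elf5 section none of 4 regions was missing at 30 h.

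The 3 genes were treated as centres of sections, each region being given to the nearest of their positions. These were taken as the rounded values 102.7, 103.1 and 103.3 Mb. Distances to them are therefore approximate, and the region nearest to a rounded position may not be the nearest to the gene. Other genes, such as Cat after Elf5, lie in the stretch, so a region of a section need not belong to its naming gene. The Cd44 section held 39 DMSO regions. Of these, 24 had no 6 h region (61.5%, 45.9 to 75.1%), and 19 had no 30 h region (48.7%, 33.9 to 63.8%). The Ehf section held 16, and calls were lacking for 10 at 6 h (62.5%, 38.6 to 81.5%) and for 6 at 30 h (37.5%, 18.5 to 61.4%). In the Elf5 section 2 of 4 were missing at 6 h and 0 of 4 at 30 h, which allows a share of up to 49.0% by the Wilson interval. Over all DMSO regions the shares missing were 43.6% at 6 h and 26.1% at 30 h. The intervals of the sections overlapped at both times, so no difference between them was resolved with these numbers.

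**Figure D2:**
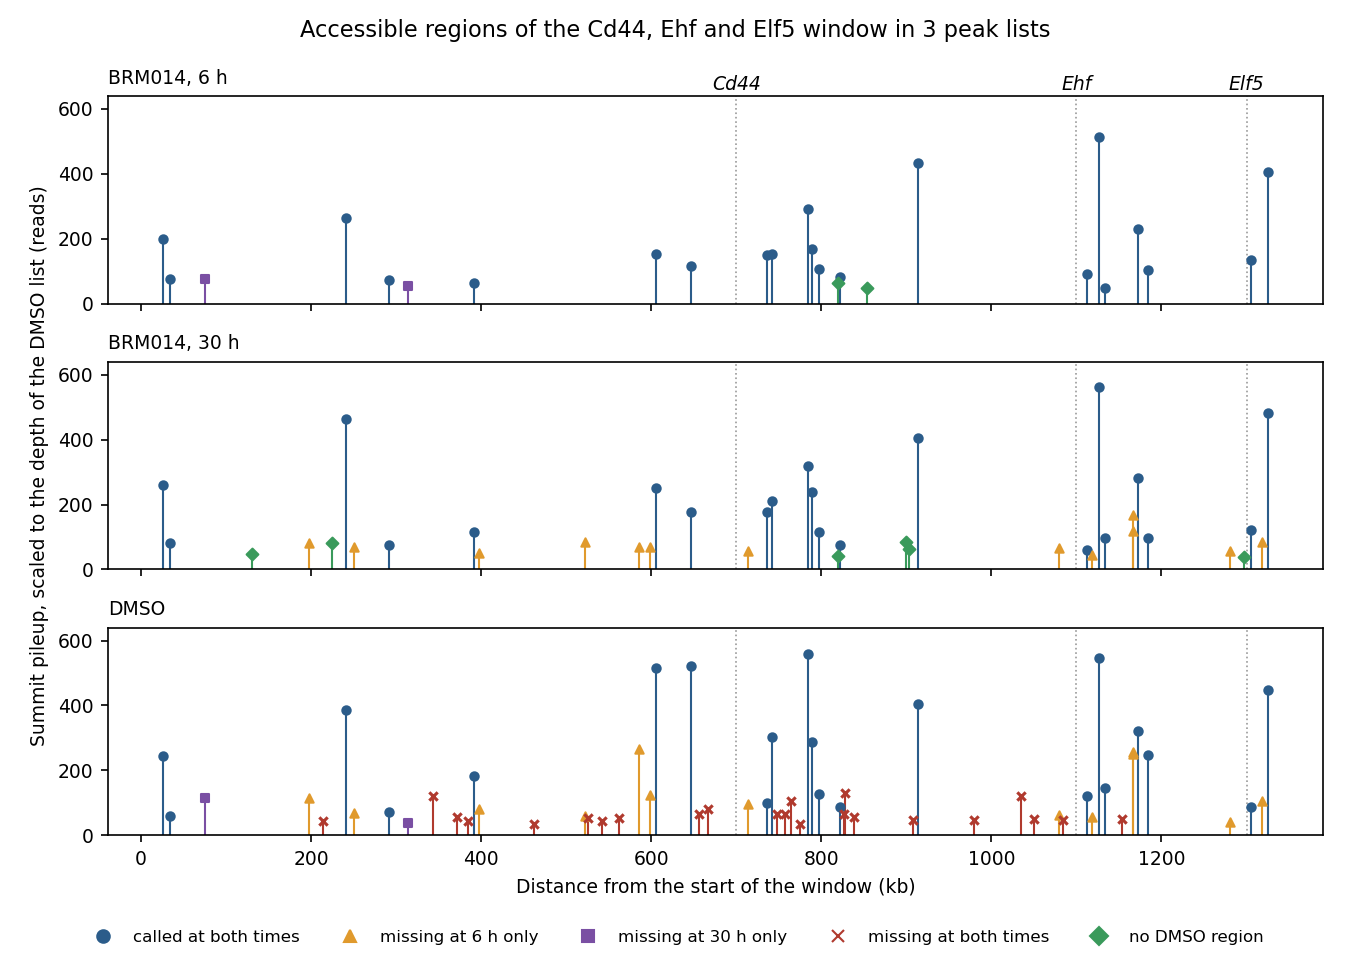
Summit pileup in reads, divided by the depth of each list relative to DMSO, is plotted against distance from the start of the window in kb for BRM014 at 6 h, BRM014 at 30 h and DMSO. Colours and symbols give the fate of each region, and dotted lines mark the rounded positions of Cd44, Ehf and Elf5. The tall DMSO regions at 102604719 and 102645481, at lower coordinates than Cd44, stand at 0.296 and 0.222 of their expected height at 6 h. The strongest region of the Ehf section stands at 0.942 and that of the Elf5 section at 0.909.

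The missing regions of the window were the weaker ones in DMSO. The authors' -log10 q, the strength their peak caller gave a region, had a median in DMSO of 36.6 (range 16.7 to 112) for the 23 regions missing at both times and 60.4 (29.2 to 241) for the 13 missing at 6 h only. It was 201 (32.2 to 530) for the 21 called at both times. The same order held over all DMSO regions, with medians of 40.7, 59.4 and 169. As a whole the window was weaker than the genome, with a median -log10 q of 55.6 against 91.7 and a median summit pileup, the number of reads stacked at the summit, of 87.0 against 129. Widths were close, at medians of 683 bp in the window and 677 bp over all DMSO regions. With all other DMSO regions weighted to the deciles of -log10 q that the window holds, the share missing was 51.6% at 6 h and 31.7% at 30 h. The values of the window, 61.0% and 42.4%, were higher than these, and both weighted shares lay inside the intervals of the window. Weighted instead to the deciles of fold enrichment, the share missing was 47.7% at 6 h and 28.9% at 30 h. Both of these lay just below the intervals of the window, which begin at 48.3% and 30.6%.

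**Figure D3:**
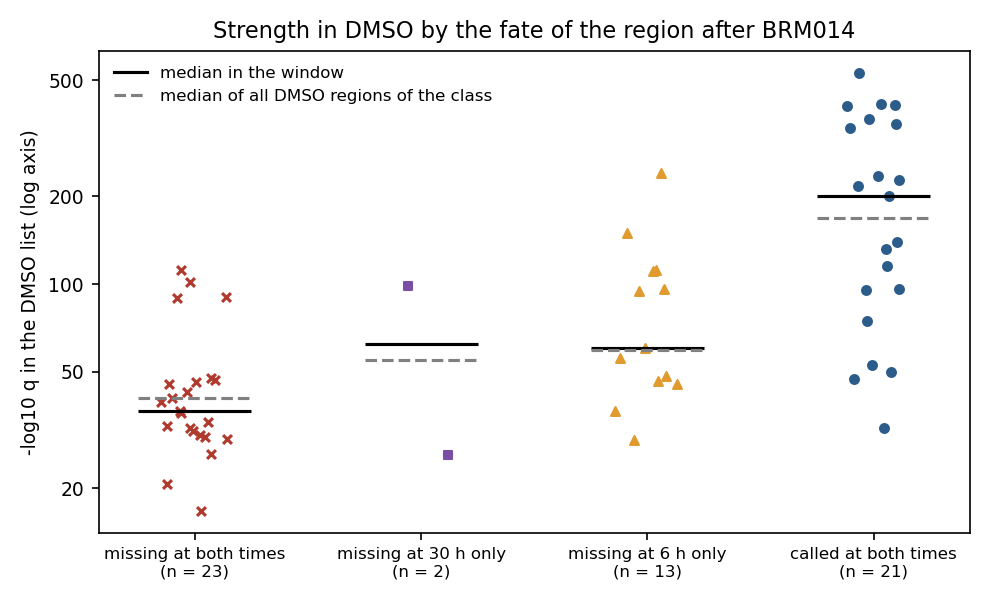
Each point is 1 DMSO region of the window, placed by its -log10 q in the DMSO list on a log axis and grouped by its fate after BRM014. Solid bars are medians in the window and dashed bars those of all DMSO regions of the same class. Regions called at both times have a median of 201 and those missing at both times one of 36.6, with overlapping ranges.

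A call says only whether a region is in the deposited list, so the height of the regions that were still called was compared as well. What rule set entry to a list is not given in the sources used here. The DMSO list held regions with a -log10 q as low as 0.365, so that value alone may not have set it. The expected pileup is the DMSO pileup times the depth of the BRM014 list relative to DMSO, which was 63.0% at 6 h and 80.7% at 30 h. The ratio exists only for called regions. A weak region is called mostly when it stands high for its expected pileup, so the ratios of weak regions lean upward. Over the 23 regions called at 6 h, the pileup found was a median 0.754 of that expected (range 0.222 to 1.55), against 0.855 over the genome. Over the 34 regions called at 30 h it was 0.808 (0.255 to 1.80), against 0.985 over the genome. Pileup was under 0.5 of that expected in 5 of 23 regions at 6 h and 6 of 34 at 30 h, where the background over all called DMSO regions was 18.6% and 9.98%. It was above that expected in 6 of 23 at 6 h and 12 of 34 at 30 h, where the background was 35.1% and 47.9%. Since the genome median itself lay below 1 at 6 h, at -0.23 on the log2 scale, the regions were also read against it. Above the genome median of their time stood 9 of 23 at 6 h and 13 of 34 at 30 h. None of these comparisons of height was matched for strength. Among all called DMSO regions of the top 3 deciles of -log10 q, 28.0% at 6 h and 15.6% at 30 h were under 0.5 of that expected.

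**Figure D4:**
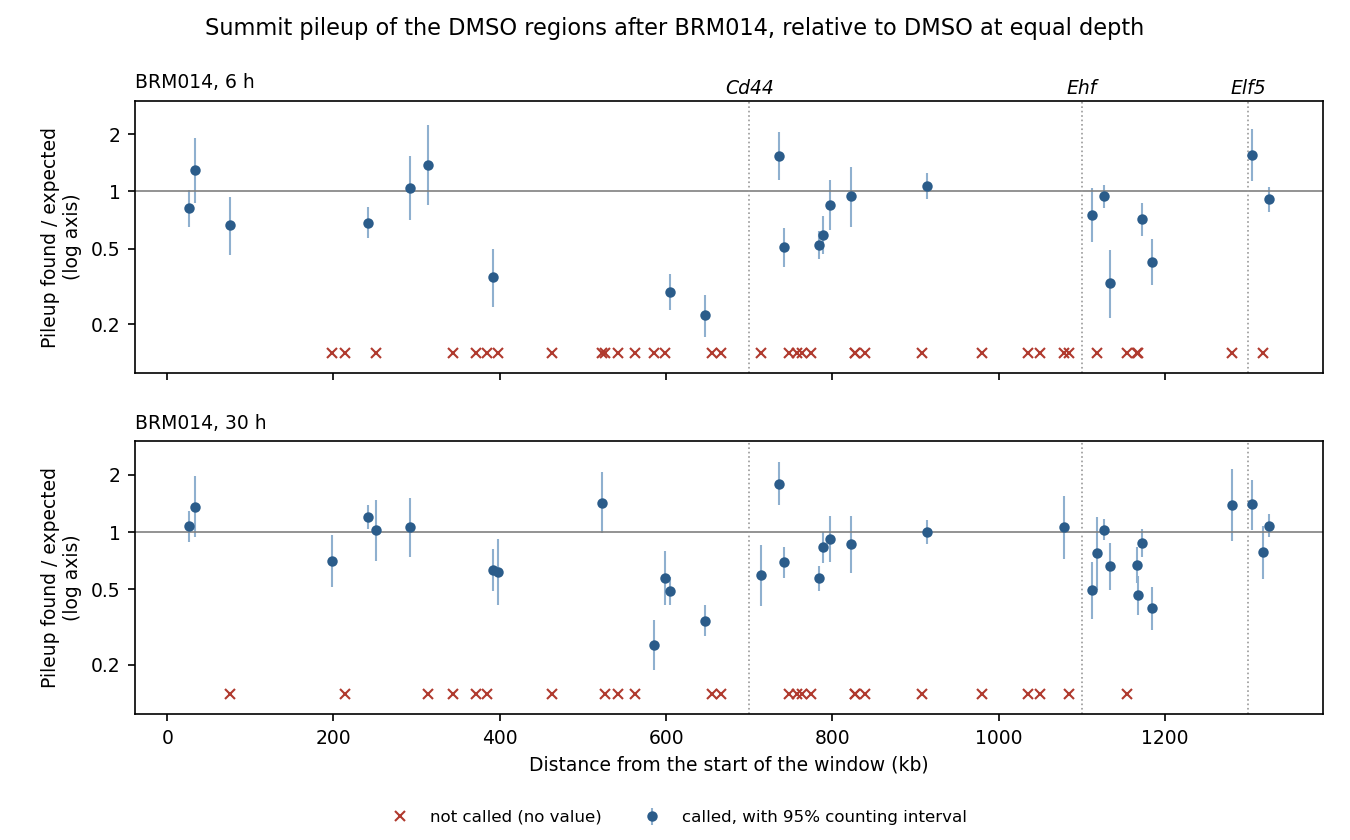
Summit pileup found over that expected from DMSO at equal depth, on a log axis, is plotted by distance from the start of the window for 6 h and 30 h of BRM014. Bars are 95% counting intervals, and crosses at the bottom are regions not called, which have no value. Values run between 0.222 and 1.55 at 6 h and between 0.255 and 1.80 at 30 h, so regions of 1 stretch differ by several fold.

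Of the 4 strongest regions of the Cd44 section, all kept their call and 3 stood well below their expected height at both times. The region chr2:102604719-102605585 reached 96 reads at 6 h and 203 reads at 30 h, against 514 reads in DMSO. This was 0.296 (0.236 to 0.369) and 0.489 (0.414 to 0.577) of the pileup expected at equal depth. Its neighbour chr2:102645481-102646930 reached 73 and 144 reads at 6 h and 30 h, against 523 in DMSO, or 0.222 (0.171 to 0.284) and 0.341 (0.282 to 0.411) of that expected. Relative to expectation they were the lowest of the 6 strongest regions of the window at both times, and both stood higher at 30 h than at 6 h. Farther along, chr2:102783845-102784601 had the highest DMSO pileup of the window. It reached 183 and 257 reads at 6 h and 30 h, against 557 in DMSO, which was 0.522 (0.439 to 0.617) and 0.572 (0.491 to 0.664) of that expected. At the other end of the section chr2:102240588-102241867 reached 167 reads at 6 h and 374 at 30 h, against 387 in DMSO. It was at 0.685 (0.568 to 0.823) of that expected at 6 h and at 1.20 (1.04 to 1.38) at 30 h, the only 1 of these 4 to stand above its expected height at 30 h.

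Closest to the rounded position of Cd44, at 14.3 kb, lay chr2:102713404-102714656, a broad region of 1253 bp with 4 summits in DMSO. It was not called at 6 h, when 60.5 reads were expected and 58.3% of DMSO regions of like pileup (within 10%) were missing. At 30 h it was called over 412 bp with 46 reads, 0.594 (0.408 to 0.852) of the 77.5 expected, and its main summit was shifted by -675 bp on the chromosome's coordinates. A pair of regions beside it, picked after their values were seen, differed from each other. The region chr2:102734989-102735859 reached 95 and 142 reads at 6 h and 30 h, against 98 in DMSO, or 1.54 (1.15 to 2.06) and 1.80 (1.38 to 2.35) of that expected. Its neighbour chr2:102740987-102742025 reached 97 and 170 reads, against 304 in DMSO, or 0.507 (0.399 to 0.639) and 0.693 (0.571 to 0.839). The first thus stood above its expected height and the second below it, with intervals that do not overlap at either time. Another region picked in this way, chr2:102391209-102392925, kept its call while it was called over 374 bp at 6 h and 870 bp at 30 h, against 1717 bp in DMSO.

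The Ehf section held the strongest region of the window, and this one stayed close to its expected height. The region chr2:103125246-103126331, with a DMSO -log10 q of 530, reached 324 reads at 6 h and 454 at 30 h, against 546 in DMSO. It stood at 0.942 (0.819 to 1.08) and 1.03 (0.907 to 1.17) of that expected, and relative to the genome median at 1.10 and 1.05. The region chr2:102913315-102914230, picked after its values were seen, reached 273 and 326 reads, against 404 in DMSO, or 1.07 (0.917 to 1.25) and 1.0 (0.861 to 1.16) of that expected. Some other regions of the Ehf section stood lower. The one nearest to the gene's rounded position, at 11.9 kb, was chr2:103111462-103112135. It reached 57 and 48 reads at 6 h and 30 h, against 120 in DMSO, at 0.754 (0.540 to 1.04) and 0.496 (0.347 to 0.698) of that expected. Its height relative to expectation was therefore lower at 30 h than at 6 h, but the intervals of both times overlap. Of the 21 regions called at both times, 16 were higher at 30 h (76.2%, against 70.3% over the genome). Likewise picked after its values were seen, chr2:103183693-103184347 reached 66 and 79 reads, against 246 in DMSO, or 0.426 (0.320 to 0.561) and 0.398 (0.305 to 0.515).

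All 4 regions of the Elf5 section were called at 30 h, when 26.1% of all DMSO regions were missing. The region chr2:103324772-103325578 reached 256 reads at 6 h and 389 at 30 h, against 447 in DMSO. It stood at 0.909 (0.777 to 1.06) and 1.08 (0.939 to 1.24) of that expected, and relative to the genome median at 1.06 and 1.09. Nearest to the rounded position of Elf5, at 4.88 kb, chr2:103304681-103305293 reached 85 and 98 reads, against 87 in DMSO. This was 1.55 (1.14 to 2.12) and 1.40 (1.03 to 1.88) of that expected. Both intervals of this region lay above 1, but 61.7% of DMSO regions of like pileup were missing at 6 h and 35.8% at 30 h. The other two were not called at 6 h. Of these, chr2:103279884-103280307 had 47 reads at 30 h, against 42 in DMSO, at 1.39 (0.895 to 2.15) of that expected. Its expected 33.9 reads lay at the 5th percentile of the 30 h list, 34.0, where a call mostly requires more than expected. The region chr2:103317390-103318114 had 67 reads at 30 h, against 106 in DMSO, at 0.783 (0.568 to 1.07). The medians of the sections at 30 h were 0.770 over 20 regions for Cd44, 0.723 over 10 for Ehf and 1.23 over 4 for Elf5, with ranges of 0.255 to 1.80, 0.398 to 1.06 and 0.783 to 1.40. Regions under 0.5 of that expected at 30 h numbered 3 of 20, 3 of 10 and 0 of 4 in these sections, against 9.98% over all called DMSO regions, and the ranges overlapped.

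The regions missing at both times were led by chr2:103034289-103035053 in the Ehf section, with a -log10 q of 112, a fold enrichment of 18.8 and 121 reads in DMSO. At equal depth 76.2 reads were expected at 6 h and 97.7 at 30 h, and 48.0% and 24.6% of DMSO regions of like pileup were missing at those times. In the Cd44 section chr2:102763687-102764369 had a -log10 q of 102 and 105 reads in DMSO, and chr2:102827036-102827882 had 90.6 and 129 reads. Next came chr2:102343657-102344347 with a -log10 q of 89.9, chr2:102655262-102655961 with 47.7 and chr2:102371179-102371695 with 46.8. For the first 4 of these regions, 22.7 to 29.8% of DMSO regions of like pileup were missing at 30 h, and for the last pair, with 65 and 57 reads in DMSO, 45.6% and 50.1%. Over all 25 regions missing at 30 h the median was 52.5% (range 22.7 to 70.8%), and over the 36 missing at 6 h it was 73.1% at 6 h (range 13.1 to 91.6%).

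A few regions were missing at 6 h at a height where under 20% of DMSO regions of like pileup were missing. The region chr2:102585315-102586092, with a DMSO -log10 q of 241 and 267 reads, was not called at 6 h although 168 reads were expected, and 13.1% of the 2985 DMSO regions of like pileup were missing. At 30 h it was called with 55 reads, 0.255 (0.187 to 0.342) of the 216 expected. In the Ehf section chr2:103165018-103166052 had 251 reads in DMSO and was not called at 6 h, when 158 were expected and 14.4% of like regions were missing. It had 136 reads at 30 h, 0.671 (0.541 to 0.830) of that expected. About 1 kb on, chr2:103167214-103167748 had 96 reads at 30 h, against 256 in DMSO, at 0.465 (0.364 to 0.590) of that expected, and 14% of like regions were missing at 6 h. These were the 3 of 36 regions missing at 6 h for which under 20% of like regions were missing. Regions of such height that were called at 6 h are not in this count. The fourth by strength, chr2:102197151-102197965, had 65 reads at 30 h, against 114 in DMSO, at 0.706 (0.513 to 0.966). Over the 13 regions missing at 6 h only, the pileup at 30 h was a median 0.706 of that expected (0.255 to 1.43), against 0.907 for the same class over the genome, and 4 of 13 stood above that expected, against 41.9% over the genome.

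Only 2 regions were missing at 30 h but called at 6 h, both in the Cd44 section. The region chr2:102074712-102075456 had 48 reads at 6 h, against 115 in DMSO, at 0.663 (0.463 to 0.936) of that expected. The region chr2:102313816-102314464 had 34 reads at 6 h, against 39 in DMSO, at 1.38 (0.847 to 2.25). Its expected pileup of 24.6 reads lay below the 5th percentile of the 6 h list, 31.0 reads. A region this weak is seen mostly when it exceeds expectation. At 30 h 92.8 and 31.5 reads were expected for them, and 26.6% and 65.9% of regions of like pileup were missing.

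Among the regions strongest by -log10 q, few calls were lost in the window or over the genome. It held 12 regions in the top 3 deciles of DMSO -log10 q, which begin at 165. At 6 h 1 of the 12 was missing (8.33%, 1.49 to 35.4%), against 7.14% of the rest of the genome in these deciles. At 30 h 0 of 12 was missing (up to 24.2%), against 2.33%. Of those called, 3 of 11 at 6 h and 4 of 12 at 30 h had under 0.5 of the pileup expected, where the background in these deciles was 28.0% and 15.6%. With so few regions, neither count was resolved from its background.

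Missing regions lay side by side in several places, as some must where 36 of 59 were missing at 6 h. Runs were not counted elsewhere in the genome, so whether missing regions clustered beyond their share was not tested. Between 102397151 and 102598879, over 202 kb ahead of the 2 strong regions at 102604719 and 102645481, 8 DMSO regions in a row were missing at 6 h. Another 5 in a row were missing at 6 h between 102978951 and 103083837, over 105 kb on the near side of Ehf. Runs of 4 missing at both times spanned 27.1 kb between 102747766 and 102774822 and 81.9 kb between 102826458 and 102908400. Between these runs stood the longest row called at both times, 4 regions over 38.3 kb between 102783845 and 102822162, with DMSO -log10 q of 52.8 to 409. From a region missing at 6 h to the nearest region of the 6 h list the gap was a median 18903 bp (range 3790 to 82097 bp). Neighbouring DMSO regions were a median 11736 bp apart, and the widest gap was 122 kb, between 102075456 and 102197151.

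Few regions were gained. At 6 h 2 of 25 regions in the window had no DMSO region (8.0%, 2.22 to 25%), against 7.42% of the whole 6 h list. At 30 h 6 of 40 were new (15.0%, 7.06 to 29.1%), against 17.9% of the whole 30 h list. The strongest at 30 h were chr2:102899199-102899648 with 68 reads and a -log10 q of 59.1, and chr2:102224367-102225158 with 66 reads and 55.0. The other four had 31 to 51 reads and a -log10 q of 16.5 to 34.4. They were chr2:102903098-102903397, chr2:102130280-102130548, chr2:103296834-103297115 in the Elf5 section, and chr2:102819760-102819985. The last of these overlapped chr2:102819737-102820193, new at 6 h with 41 reads, and was the only gain seen at both times. The second gain at 6 h, chr2:102853414-102853910 with 31 reads, was absent from the 30 h list. Within their own lists the new regions ranked no higher than percentile 44.0 of -log10 q.

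The 21 regions called at both times had median widths of 691 bp at 6 h and 763 bp at 30 h, against 863 bp in DMSO. Over the genome the medians of such regions were 696 and 732 bp, against 800 bp in DMSO. In the window 17 of 21 were narrower at 6 h and 12 of 21 at 30 h than in DMSO, where 75.4% and 66.1% of such regions were narrower over the genome. The local background, which the authors' caller takes from reads around the summit, was lower than in DMSO as well. At equal depth its median over these 21 regions was 0.752 of DMSO at 6 h and 0.817 at 30 h, against 0.842 and 0.985 over the genome. It was lowest at chr2:102645481-102646930, with 5.43 reads at 6 h and 8.73 at 30 h, against 41.0 in DMSO, or 0.211 and 0.264 at equal depth. At this region the authors' fold enrichment over local background was 11.5 at 6 h and 14.9 at 30 h, against 12.5 in DMSO. That ratio stayed near its DMSO value where the summit pileup did not. Reads of the region itself may count in its local background, so background and pileup are not separate observations.

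Other stretches of the genome were read with the same ruler. Cut into tiles of 1.35 Mb, the genome gave 1788 tiles with a DMSO region, with a median of 20 regions each, and 84 held at least the 59 regions of the window. Among the 920 tiles with at least 20 regions, the share missing was a median 43.8% at 6 h (SD 11.5 between tiles) and 25% at 30 h (SD 9.79). In 62 of these tiles the share missing at 6 h was above the 61.0% of the window, and in 44 the share at 30 h was above its 42.4%. At the edges, the first region inside, chr2:102025711-102026859 with a -log10 q of 201, and the last inside, chr2:103324772-103325578 with 415, were called at both times. The nearest outside, chr2:101999004-101999652 with 67.4 and chr2:103367297-103367785 with 20.7, were missing at both.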

How the data were processed

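ATAC-seq peak lists of 3 groups with 2 replicates each were used, each list made from both replicates, per the labels. The submitters' processing notes name MACS2 2.1.2 and mm9. An aligner, read filters, a transposase shift and caller options are not given in the sources used here. The values were deposited by the authors as a score (540 to 1000), a ratio (fold enrichment at the summit), -log10 p, -log10 q and the summit offset.

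Entries sharing an interval were merged per list, keeping the highest score, fold enrichment, -log10 q and pileup. A region was shared if it overlapped by 1 bp. Summit pileup and local background were solved from those deposited values, fold enrichment together with -log10 p, assuming the default formulas of the caller, and matched within 0.001 for 100% of entries. Relative depth came from the lowest background of each list, 2.12 at 6 h, 2.72 at 30 h and 3.37 in DMSO, and total reads are unknown. Shares have Wilson intervals, and pileup ratios have exact conditional binomial intervals. Both ratios to DMSO share the DMSO list. The scripts (python 3.11.15, scipy 1.17.1) were tested on simulated data.

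The window, gene positions, motifs and comparisons were chosen with earlier results of these data known. Regions named were the 6 strongest in DMSO by -log10 q, the 6 strongest missing at both times and the 4 strongest missing at 6 h only. Also named were all missing at 30 h only, up to 6 new per list, those nearest each gene's rounded position and those at the edges. The rest of the Elf5 section and the regions marked as such were picked after their values were seen.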

Additional observations from a re-analysis of the deposited data

How the results depend on the processing

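Of 47 alternative values for the window, 38 stayed within the counting interval or spread of the reported value and 9 did not. With regions of score 1000 only, the 6 h list lacked 46.2% and the 30 h list 25.6%, both lacked 23.1%, and the share new was 0% at 6 h and 4.55% at 30 h. Over all such regions these were 28.5%, 14.1%, 12.3%, 0.903% and 4.62%. When all lists were cut to their 25922 strongest regions, the 6 h list lacked 35.7%, the 30 h list 28.6% and both 21.4%, and 28.0% of regions at 6 h were new. Over all regions cut in this way these were 23.1%, 19.9%, 14.9% and 22.3%. Both settings leave weak regions out, which are those most often missing. Depth taken from regions shared with DMSO, 53.8% at 6 h and 79.5% at 30 h, gave a median pileup found over expected of 0.882 and 0.821. At 6 h this puts 3 regions that lay under 1 above it, among them chr2:103125246-103126331 at 1.10 and chr2:103324772-103325578 at 1.06. Stricter overlap, single entries, a shorter window and a minimum -log10 q of 5 kept each share within its interval. No paired analysis was possible because replicates were pooled within each list, and for the same reason no replicate could be left out. How far a second DMSO list would differ from the first is not known. A region near the calling limit can be missing through depth alone. Whether lower depth at 6 h accounts for part of the missing regions was not tested beyond the shares at like pileup. Since each list was made from both replicates, whether a region was missing because they disagreed could not be tested.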
